A study of Mus musculus with 6 samples.

Results

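Aminoacyl-tRNA synthetases are the enzymes that load each transfer RNA with its amino acid. The genes described here are 36 mouse synthetase genes, 20 for cytosolic and 16 for mitochondrial enzymes, out of 49315 genes in the count tables. They were taken by symbol through the Ensembl gene identifier, and all 36 were found. RNA sequencing libraries were made from the gastrocnemius, the large calf muscle, of mice 3 months old on a mixed C57BL/6 and 129 background. The WT group has 3 libraries, and the mKO group has 3 libraries from mice with a muscle-specific knockout of Hnrnpu, which encodes a nuclear RNA-binding protein. By its title, the series is about gene expression and splicing under this protein in muscle. The labels name no further allele or treatment, and neither the promoter that drives the deletion nor the deleted exons are given in the sources used here. Replicates carry numbers but no animal names, so the p-values rest on scatter between libraries within a group, which may be technical.

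A synthetase joins an amino acid to the end of its transfer RNA at the cost of ATP, and the charged transfer RNA is then carried to the ribosome by an elongation factor. The cytosol and the mitochondrion each have their own protein synthesis, and for most amino acids separate nuclear genes encode the enzymes of the 2 compartments. In mouse symbols the mitochondrial genes end in 2. Gars and Kars each make both forms from 1 gene, Eprs encodes a fused enzyme for glutamate and proline, and cytosolic phenylalanine is loaded by a complex of the Farsa and Farsb subunits. When charged transfer RNAs run short, the kinase encoded by Eif2ak4 (GCN2) leads to translation of the transcription factor ATF4, and several cytosolic synthetase genes are known targets of ATF4. Mutations of synthetase genes cause peripheral neuropathies and mitochondrial diseases in people.

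Depth was 32108684 to 42344238 counts per library, of which the 36 genes took 61658 to 111165. The lowest count of any of them in any library was 70, for Pars2. Hnrnpu had 233, 235 and 247 CPM in WT replicates 1 to 3 and 209, 210 and 205 CPM in mKO replicates 1 to 3 (log2 -0.20, SE 0.10, edgeR adjusted p = 0.147) and did not pass the test; summed over all exons, it gives no check of the genotype. CPM are counts relative to the library's total, with the totals scaled by edgeR's TMM factors. Listed fibre markers were abundant in both groups, with 263100 to 286000 summed CPM in WT and 165000 to 196800 in mKO libraries, and 5 of 7 were called lower. Ckm was 2.61-fold, Myh4 2.98-fold and Mb 3.56-fold lower. All 12 listed macrophage genes were higher in mKO libraries, their sum being at most 358 CPM in WT and 635 to 1042 CPM in mKO. All 5 genes of dividing cells were higher (4.64 to 5.83 against 33.8 to 42.4 summed CPM) and all 5 endothelial genes lower (221 to 291 against 139 to 153). The defining genes of T and B lymphocytes summed to at most 0.521 CPM in any library. Among the other lists, 2 of 6 fibroblast genes were higher, and of 4 satellite cell genes 2 were higher and 1 lower. Of 4 smooth muscle genes 1 was higher and 1 lower, and 0 of 4 adipocyte and 0 of 4 Schwann cell genes were called. Over all tested genes, 18.2% were called higher and 18.9% lower. The part of these markers in the results below was not tested. In bulk tissue, a change in the number of cells of a type and a change in RNA per cell cannot be told apart.

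The rises that passed the test were all in genes of the cytosolic set on the TMM scale. That set includes Gars, which rose, and Kars, which did not pass, although each makes the enzyme of both compartments. Of 20 cytosolic genes, 10 were higher and 2 lower in mKO libraries, and of 16 mitochondrial genes none was higher and 4 were lower (edgeR, adjusted p under 0.05). Over all 16650 genes tested, 18.2% were called higher and 18.9% lower (37.0% in all). The cytosolic share of 50% higher lay above the background, while the mitochondrial share of 25% lower was near it. At least 2-fold higher were 2 cytosolic genes, against 8.77% of all tested genes. A single mitochondrial gene, Ears2, was higher at an unadjusted p under 0.05, and DESeq2 and limma-voom called 0 higher. The median log2 fold change was 0.35 for the cytosolic genes, -0.25 for the mitochondrial genes and 0.02 for all tested genes. When CPM were scaled by library totals alone, the median of all genes moved up by 0.47 and the mitochondrial median turned to 0.22, with 5 higher and 1 lower, while 15 cytosolic genes were higher and 1 lower. On that scale 49.0% of all genes were called higher and 6.75% lower. The distance between the 2 medians was 0.60 under either scaling.

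**Figure D1:**
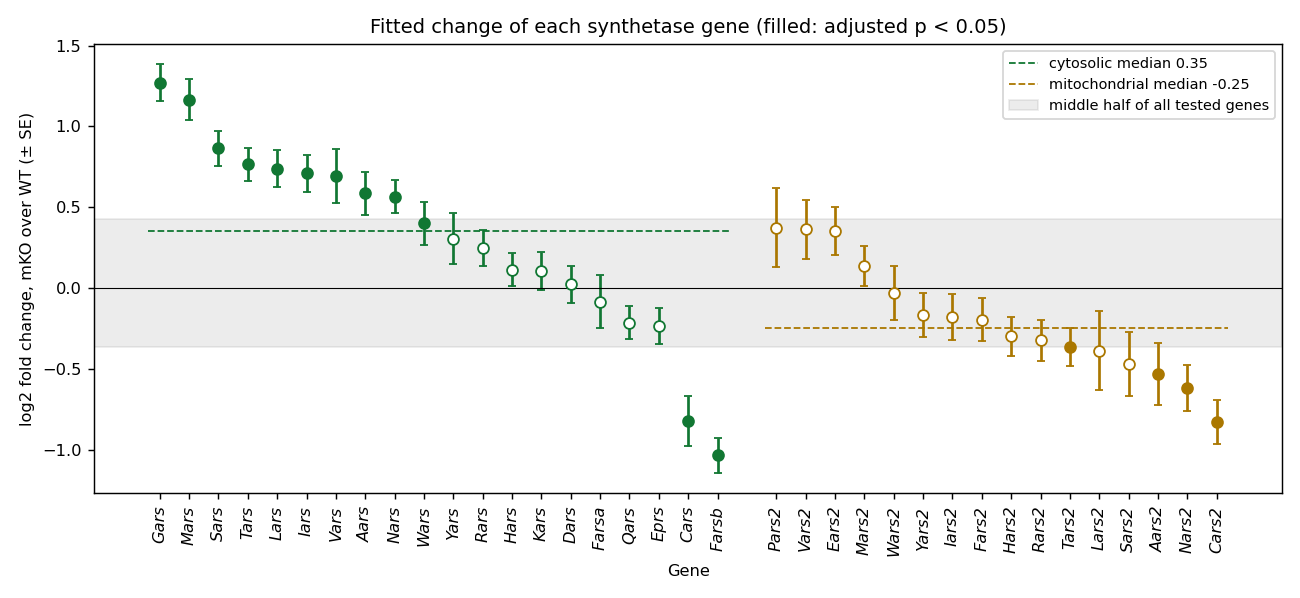
Fitted log2 fold change, mKO over WT, of each gene with its standard error, cytosolic genes on the left and mitochondrial genes on the right. Filled points were called at an adjusted p under 0.05, dashed lines are the set medians (0.35 and -0.25, the latter 0.22 with library totals), and the grey band runs from the lower to the upper quartile of all tested genes, -0.36 to 0.43.

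Summed over each set within a library, the same contrast appeared without overlap. The 20 cytosolic genes summed to 1737, 1752 and 1748 CPM in WT replicates 1 to 3 and to 2169, 2236 and 2168 CPM in mKO replicates 1 to 3. For the 16 mitochondrial genes the sums were 322, 353 and 301 CPM in WT and 280.1, 269 and 277 CPM in mKO. All 3 mKO libraries were above WT in the first sum and below WT in the second, but with library totals they were above WT in both (mitochondrial sums of 277, 299.8 and 254 against 336, 314 and 319 CPM). The ratio of the sums does not depend on scaling between libraries. It was 5.39, 4.96 and 5.80 in WT (mean 5.39 ± 0.421, SD, n = 3) and 7.74, 8.31 and 7.83 in mKO (mean 7.96 ± 0.306, SD, n = 3). Long genes weigh more in these sums, Eprs most of all.

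**Figure D2:**
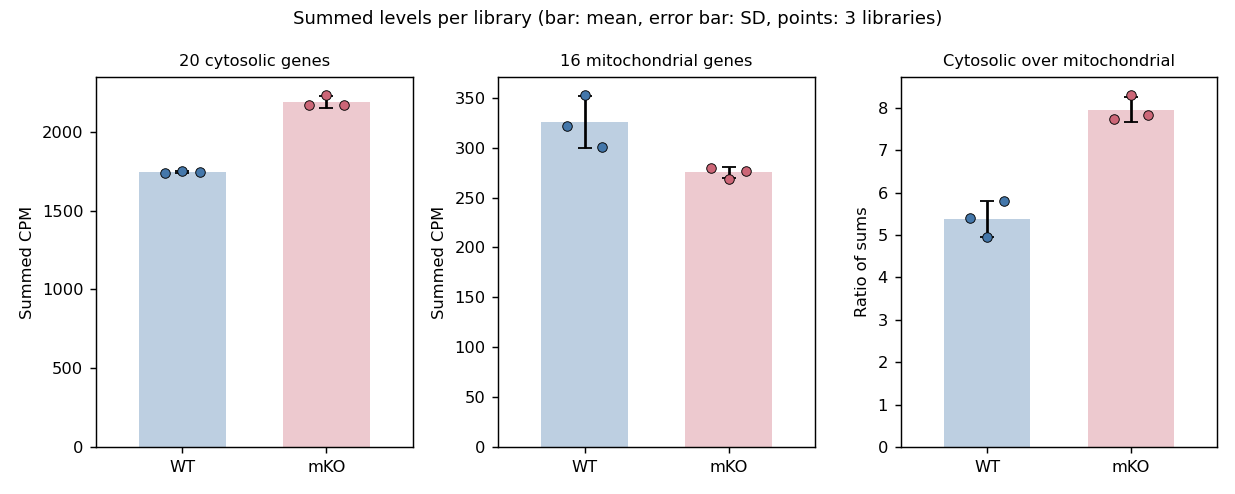
Summed CPM of the 20 cytosolic genes, of the 16 mitochondrial genes and the ratio of these sums, with 1 point per library, bars for the mean of 3 libraries and error bars for the SD. The ratio was 4.96 to 5.80 in WT and 7.74 to 8.31 in mKO libraries.

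Gars, the glycyl-tRNA synthetase gene, showed the largest rise among the 36 (chromosome 6, 55038007 to 55079500, plus strand, GRCm38). It serves both compartments, and its human counterpart is mutated in a form of Charcot-Marie-Tooth neuropathy. WT replicates 1 to 3 had 65.3, 75.1 and 68.9 CPM, and mKO replicates 1 to 3 had 179, 172 and 154 CPM. Every mKO library was more than 2 times as high as every WT library. The fitted change was 2.41-fold (log2 1.27, SE 0.11, edgeR adjusted p = 4.58e-06).

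Mars, for methionine, whose charged initiator transfer RNA starts every cytosolic protein, rose 2.24-fold (log2 1.16, SE 0.13, edgeR adjusted p = 2.19e-05). Its values were 40.7, 42.2 and 32.3 CPM in WT and 83.8, 93.9 and 80.2 CPM in mKO libraries, with no overlap. Mars lies on chromosome 10 (127296221 to 127311786, minus strand) and shares 68 exon bases with Ddit3 on the other strand. Ddit3, which encodes the stress factor CHOP, did not pass the test (12.7 ± 3.63 against 13.3 ± 1.00 CPM, SD, n = 3, edgeR adjusted p = 0.800).

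Sars, for serine and also the enzyme that begins the route to selenocysteine, had 100.5, 108 and 91.7 CPM in WT and 175, 188 and 183 CPM in mKO libraries. This was a 1.82-fold rise (log2 0.87, SE 0.11, edgeR adjusted p = 6.47e-05). Tars, for threonine, followed with 82.5, 78.8 and 85.2 CPM against 134, 142 and 144 CPM (1.70-fold, edgeR adjusted p = 0.000111). In both genes every mKO library lay above every WT library.

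Leucine and isoleucine, which are branched-chain amino acids that muscle breaks down, have their enzymes in Lars and Iars. Lars (chromosome 18, 42202350 to 42262122, minus strand) had 95.4, 85.4 and 99.4 CPM in WT and 167, 159.8 and 141 CPM in mKO libraries (1.67-fold, edgeR adjusted p = 0.000305). Iars had 78.9, 92.5 and 75.3 CPM against 134, 138 and 132 CPM (1.64-fold, edgeR adjusted p = 0.000367). Vars, the third branched-chain enzyme, for valine, was far less abundant with 5.85, 8.06 and 5.82 CPM against 11.8, 10.5 and 9.61 CPM (1.62-fold, edgeR adjusted p = 0.00584). None of the 3 genes had overlapping groups.

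Nars, for asparagine, had the highest level per exon length of the 36 in both groups. Its values were 137, 142 and 144 CPM in WT and 203, 215 and 208 CPM in mKO libraries (1.48-fold, log2 0.57, SE 0.10, edgeR adjusted p = 0.000892). Aars, for alanine, had 99.7, 129 and 97.3 CPM against 149.7, 182 and 158 CPM (log2 0.59, SE 0.13, edgeR adjusted p = 0.00403). The mKO libraries were higher in both genes, but WT replicate 2 came closest to them in Aars. Aars shares 1326 exon bases, 14.3%, with Exosc6 on the same strand, which had 0 counts in every library, so the Aars count is uncertain.

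Wars, for tryptophan, is also an interferon-induced gene. It showed the smallest rise that passed (13.3, 13.0 and 10.6 CPM against 15.2, 16.6 and 16.8 CPM; 1.32-fold, edgeR adjusted p = 0.0298). The call was lost without WT replicate 3 (adjusted p = 0.116), mKO replicate 2 (0.0787) or mKO replicate 3 (0.106). Of 9 listed interferon response genes, 5 were higher (18.2% of all tested genes were), among them Ifit3 (log2 1.44), Irf7 (2.47), Ifit1 (1.12) and Irf9 (0.78), with Ifit3 counts uncertain because a near-identical copy exists. Their part in the Wars result was not tested.

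The cytosolic genes that fell were Farsb and Cars. Farsb encodes the beta subunit of phenylalanyl-tRNA synthetase and had 55.6, 63.6 and 54.6 CPM in WT against 28.2, 27.8 and 29.0 CPM in mKO libraries. It was 2.05-fold lower (log2 -1.03, SE 0.11, edgeR adjusted p = 1.44e-05). Its partner Farsa, the alpha subunit, had 11.1, 16.2 and 14.1 CPM against 12.6, 15.3 and 11.2 CPM, and the groups overlapped (log2 -0.08, SE 0.16, edgeR adjusted p = 0.731). The CPM ratio of Farsb to Farsa, a comparison chosen after the values were seen, was 5.02, 3.93 and 3.86 in WT and 2.24, 1.82 and 2.58 in mKO libraries. Farsb shares 248 of its exon bases, 9.47%, with Sgpp2 on the other strand, which had 0 to 4 counts per library.

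Cars, for cysteine, had 25.1, 38.0 and 25.9 CPM in WT and 16.8, 16.3 and 17.2 CPM in mKO libraries. The groups did not overlap, and WT replicate 2 was the highest. It was 1.77-fold lower (log2 -0.82, SE 0.15, edgeR adjusted p = 0.00118), but with library totals the change shrank to -0.36 (adjusted p = 0.0643). The mitochondrial cysteine gene Cars2 fell by a similar size, as given below.

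The other 8 cytosolic genes did not pass, with adjusted p from 0.0935 to 0.897. Kars, the lysine enzyme of both compartments, had 111, 136 and 107 CPM against 131, 125 and 126 CPM (log2 0.11, SE 0.12, edgeR adjusted p = 0.518). Qars, for glutamine, had 74.2, 67.6 and 76.3 CPM against 62.2, 61.7 and 64.4 CPM (log2 -0.21, SE 0.10, edgeR adjusted p = 0.130). Eprs, for glutamate and proline, had the highest CPM of the family, 468, 401 and 472 against 368, 378 and 396 (log2 -0.23, SE 0.11, edgeR adjusted p = 0.120). In Qars and Eprs every mKO library lay below every WT library, and both signs turned with library totals (0.25 and 0.23). Rars, for arginine, and Hars, for histidine, were without overlap in the other direction (log2 0.25 and 0.12). Dars, for aspartate (0.02), and Yars, for tyrosine (0.31), overlapped. Without WT replicate 2, Yars passed (log2 0.53, edgeR adjusted p = 0.00329) and Eprs did too (-0.31, 0.0300).

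**Figure D3:**
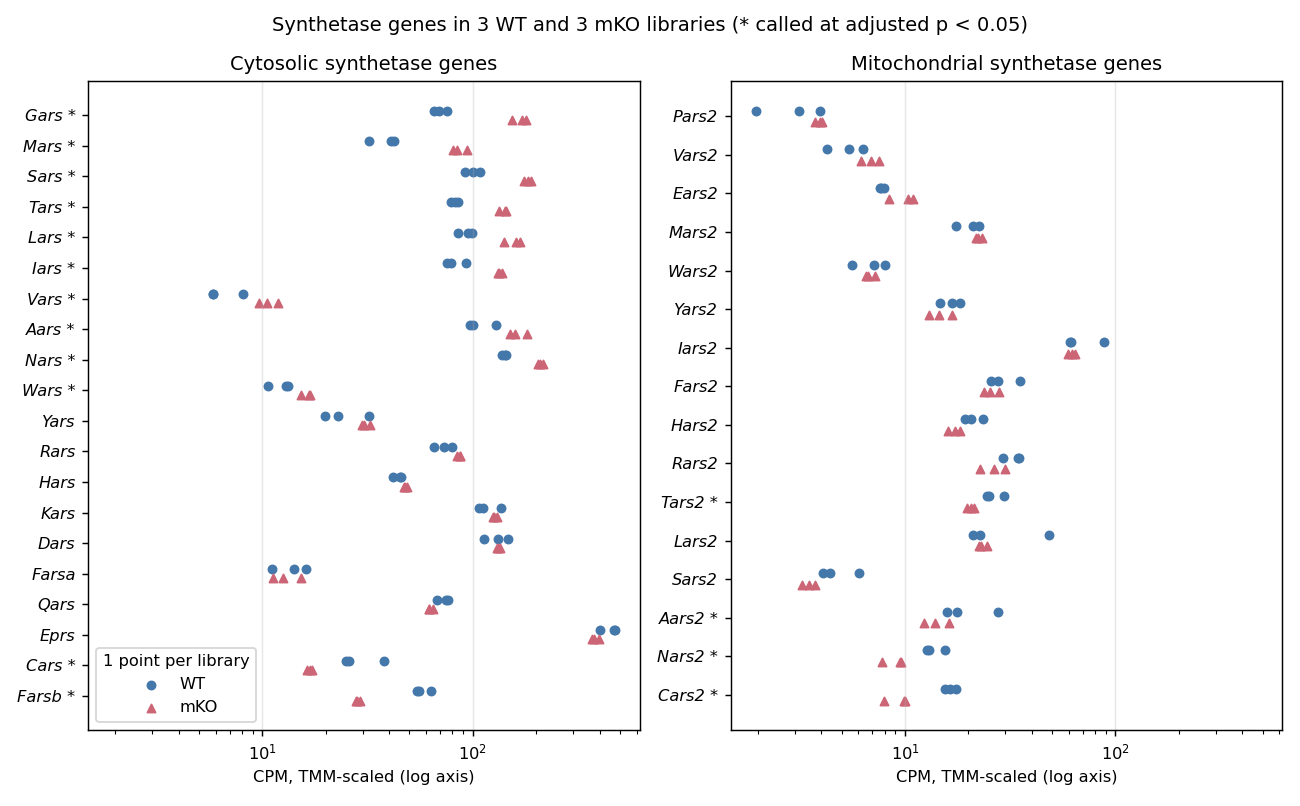
CPM of each gene in each library on a log axis, cytosolic genes on the left and mitochondrial genes on the right, ordered by fitted change, with circles for WT, triangles for mKO and an asterisk for called genes. Groups stood apart in 16 cytosolic genes (12 with mKO higher) and in 6 mitochondrial genes (1 with mKO higher). The median log2 fold change of the mitochondrial genes, not plotted here, turns positive with library totals.

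Counted without a test, the groups did not overlap in 16 of 20 cytosolic and 6 of 16 mitochondrial genes, against 49.3% of all tested genes. With mKO higher there were 12 and 1 such genes (background 25.3%), and with mKO lower 4 and 5 (background 24%).

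Windows of RefSeq promoter sequence (GRCm38.p6, 250 bases before to 50 after a transcript start) were available for 13 cytosolic and 14 mitochondrial genes. They were searched on both strands for TGATGNAA, the core of the C/EBP-ATF response element through which ATF4 acts on genes of the amino acid response. The motif stood in 5 of 13 cytosolic windows (38.5%) and 0 of 14 mitochondrial windows, against 4.51% of 27025 genes in the table. Its stricter form TGATGCAA, which is contained in it, stood in 4 and 0, against 1.03% of all genes. Of 6 genes with a window among the 10 that rose, Aars, Gars, Iars and Tars held it and Mars and Sars did not. Yars, which did not pass, held it as well, and the other 5 genes that did not pass and Farsb, which fell, did not. No window was at hand for Cars, Hars, Lars, Nars, Rars, Vars, Wars, Hars2 and Pars2. A RefSeq start can differ from the outer end of the counted Ensembl gene. For Tars2, on the minus strand, the window (95754928 to 95755227) lies inside the counted gene, which runs to 95760206. Of 10 listed amino acid response genes, Asns, Chac1, Nupr1 and Trib3 held it. A match is a description of these letters and shows no binding, and a lack of it says only that the letters are not in this window.

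The 5 cytosolic windows with the motif are shown because they place it relative to the transcript start. They run 5′ to 3′ on the gene's strand, with the motif in capitals; all but the Yars copy lie on the other strand and so appear as the reverse complement.
Gars (chr6:55037751-55038050, plus strand): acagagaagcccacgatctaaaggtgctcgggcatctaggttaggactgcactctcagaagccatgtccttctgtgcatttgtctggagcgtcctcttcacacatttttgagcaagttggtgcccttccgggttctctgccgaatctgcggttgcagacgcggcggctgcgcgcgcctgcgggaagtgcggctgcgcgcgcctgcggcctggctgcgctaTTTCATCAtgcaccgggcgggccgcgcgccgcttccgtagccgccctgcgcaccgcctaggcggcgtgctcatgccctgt
Tars (chr15:11399609-11399908, minus strand): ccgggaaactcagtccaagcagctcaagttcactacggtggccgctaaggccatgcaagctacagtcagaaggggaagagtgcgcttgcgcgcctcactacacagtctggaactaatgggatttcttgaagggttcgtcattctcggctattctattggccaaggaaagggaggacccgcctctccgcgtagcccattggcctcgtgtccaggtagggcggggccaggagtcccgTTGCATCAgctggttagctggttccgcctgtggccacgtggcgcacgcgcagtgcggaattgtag
Iars (chr13:49681880-49682179, plus strand): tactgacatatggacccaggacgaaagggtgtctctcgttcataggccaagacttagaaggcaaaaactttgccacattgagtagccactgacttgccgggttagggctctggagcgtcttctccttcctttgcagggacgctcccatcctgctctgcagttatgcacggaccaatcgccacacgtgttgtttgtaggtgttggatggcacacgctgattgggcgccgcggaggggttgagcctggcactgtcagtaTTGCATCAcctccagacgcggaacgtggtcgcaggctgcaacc
Aars (chr8:111033592-111033891, plus strand): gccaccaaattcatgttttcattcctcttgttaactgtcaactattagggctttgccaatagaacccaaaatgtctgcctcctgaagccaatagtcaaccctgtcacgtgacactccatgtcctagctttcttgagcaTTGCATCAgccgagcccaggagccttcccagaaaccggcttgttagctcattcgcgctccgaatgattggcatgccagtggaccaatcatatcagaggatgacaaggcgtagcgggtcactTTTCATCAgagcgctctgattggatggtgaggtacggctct
Yars (chr4:129189653-129189952, plus strand): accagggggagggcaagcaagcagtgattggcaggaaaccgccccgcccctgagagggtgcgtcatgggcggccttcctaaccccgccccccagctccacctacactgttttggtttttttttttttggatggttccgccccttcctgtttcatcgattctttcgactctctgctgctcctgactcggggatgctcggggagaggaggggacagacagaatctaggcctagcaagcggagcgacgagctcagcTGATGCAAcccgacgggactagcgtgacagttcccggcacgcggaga

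The first base of the motif lay 30 bases before the start in Gars and 15 bases before it in Tars. It was base 8 after the start in Iars and base 4 in Yars, the latter on the gene's own strand. Aars held 2 copies, 112 bases before the start and at base 10 after it. This is the RefSeq start, and the whole Aars window (111033592 to 111033891) lies inside the counted Ensembl gene, which begins at 111033144. The 5 genes with the motif had log2 changes of 0.31 to 1.27 (median 0.71), and the 8 cytosolic genes with a window but without it had -1.03 to 1.16 (median -0.03). Members were few and the difference was not tested.

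Among mitochondrial enzymes the clearest change was that of Cars2, for cysteine, on chromosome 8 (11513977 to 11550783, minus strand). It had 16.4, 17.5 and 15.5 CPM in WT and 10, 7.93 and 9.93 CPM in mKO libraries, with no overlap. This was 1.77-fold lower (log2 -0.83, SE 0.14, edgeR adjusted p = 0.000515), and it was the 1 mitochondrial call that all 14 alternatives kept, library totals included. Cars2 shares 422 exon bases, 5.83%, with Naxd on the other strand.

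Nars2, for asparagine, had 13.0, 12.7 and 15.4 CPM against 9.56, 9.43 and 7.75 CPM. It was 1.53-fold lower (log2 -0.62, SE 0.14, edgeR adjusted p = 0.00479), and -0.15 with library totals (adjusted p = 0.405). Tars2, for threonine, had 25, 29.5 and 24.6 CPM against 20.5, 19.6 and 21.3 CPM (log2 -0.36, SE 0.12, edgeR adjusted p = 0.0263). Both genes had mKO libraries below all WT libraries, but the sign of Tars2 turned with library totals (0.10), and its call was lost when any of WT replicate 2 or mKO replicates 1, 2 and 3 was left out (adjusted p = 0.0625, 0.0690, 0.0939 and 0.0705).

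Aars2, for alanine, whose human counterpart is mutated in an infantile cardiomyopathy, had 17.7, 27.6 and 15.9 CPM in WT and 16.2, 12.3 and 13.8 CPM in mKO libraries. The groups overlapped, WT replicate 2 was far above the other two, and the call (log2 -0.53, SE 0.19, edgeR adjusted p = 0.0443) was lost without that library (-0.25, adjusted p = 0.190) and without mKO replicate 2 (0.154) or 3 (0.116). Limma-voom did not call it either (adjusted p = 0.0564).

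The remaining 12 mitochondrial genes did not pass, with log2 changes from -0.47 to 0.37 and adjusted p from 0.0649 to 0.909. Below 0 stood 8 of them and above 0 stood 4, Pars2, Vars2, Ears2 and Mars2. Rars2, for arginine, had 34.8, 29.1 and 34.5 CPM against 22.7, 26.4 and 29.7 CPM (log2 -0.32, SE 0.13, edgeR adjusted p = 0.0649), with 1 mKO library just above the lowest WT library. It passed without WT replicate 2 (-0.41, adjusted p = 0.0234). Hars2, for histidine, had 19.3, 23.5 and 20.5 CPM against 17.3, 16 and 18.2 CPM without overlap (log2 -0.30, SE 0.12, edgeR adjusted p = 0.0738). The signs of Rars2 and Hars2 turned with library totals (0.14 and 0.17).

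Lars2, for leucine, showed 1 library apart: WT replicate 1 had 48.1 CPM, while WT replicates 2 and 3 had 21.1 and 22.7 CPM and the mKO libraries 24.5, 22.6 and 23.1 CPM. The log2 change was -0.39 (SE 0.24, edgeR adjusted p = 0.238), and without WT replicate 1 it was 0.090 (adjusted p = 0.642). Fars2, for phenylalanine, had the highest level per exon length of its set, with 25.7, 35.1 and 27.6 CPM against 28, 25.4 and 23.8 CPM. Pars2, for proline, had the lowest, with 3.14, 3.96 and 1.96 CPM against 3.97, 3.73 and 4.02 CPM. Neither gene differed beyond the spread of its libraries. Iars2, for isoleucine, shares 22.9% of its exon length with Rab3gap2 on the other strand, more than any other gene here, so its count (WT 69.9 ± 15.7, mKO 61.9 ± 2.22 CPM, SD, n = 3) is uncertain.

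Set against each other within a library, the cytosolic and mitochondrial genes of the same amino acid gave 16 pairs, with Eprs in 2 of them. The log2 ratio of the pair, taken with 0.5 CPM added to each, was higher in all mKO than in all WT libraries in 10 pairs, lower in 2 and overlapping in 4. Of the 2 lower pairs, Eprs over Pars2 stood apart only by a very narrow gap, given below. Scaling between libraries cancels in this ratio apart from the added 0.5. Of single tested genes, 49.3% had groups without overlap. No such share was computed for ratios of other gene pairs, so the count of pairs has no background to be set against. The largest shift was that of serine: Sars over Sars2 was 4.36, 4.05 and 4.34 in WT and 5.46, 5.66 and 5.43 in mKO libraries on the log2 scale, a difference of 1.27. Asparagine (1.15), threonine (1.11), alanine (1.08), methionine (1.02), leucine (1.01) and isoleucine (0.86) followed. The isoleucine and alanine ratios are uncertain, since Iars2 shares 22.9% of its exon length with Rab3gap2 and Aars 14.3% with Exosc6. Arginine (0.57), tryptophan (0.41) and histidine (0.40) were smaller and also without overlap. Hars and Hars2 share 195 exon bases on opposite strands, 9.81% of Hars and 4.56% of Hars2, so the histidine ratio is uncertain. For leucine the difference was 0.66 without WT replicate 1, the library with high Lars2.

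The Eprs ratios fell, by 0.55 against Ears2, for glutamate, and by 0.60 against Pars2, for proline. Neither pair overlapped with 0.5 CPM added, but the proline groups almost touched. The lowest WT ratio of Eprs over Pars2 was 6.4949 (replicate 2), and the highest mKO ratio was 6.4855 (replicate 2). That gap is far smaller than the WT SD of 0.55, and Pars2 had as few as 70 counts, so the proline separation is uncertain. Cysteine showed almost no shift (0.02, groups overlapping), since Cars and Cars2 were lower by the same factor. Phenylalanine (Farsa over Fars2, 0.11), valine (0.32) and tyrosine (0.49) also overlapped. Farsb, the other subunit of the cytosolic phenylalanine enzyme, was in no pair. It fell (log2 -1.03), while Fars2 did not pass (log2 -0.19), so the phenylalanine pair describes the Farsa subunit only. An exact permutation test, two-sided, gave p = 0.1 in each of the pairs without overlap, which is the lowest value open to 3 against 3 libraries, and 0.133 after adjustment over the 16 pairs. No pair could pass 0.05 in this test with 3 libraries a group; no test that uses the spread within groups was run on the ratios.

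**Figure D4:**
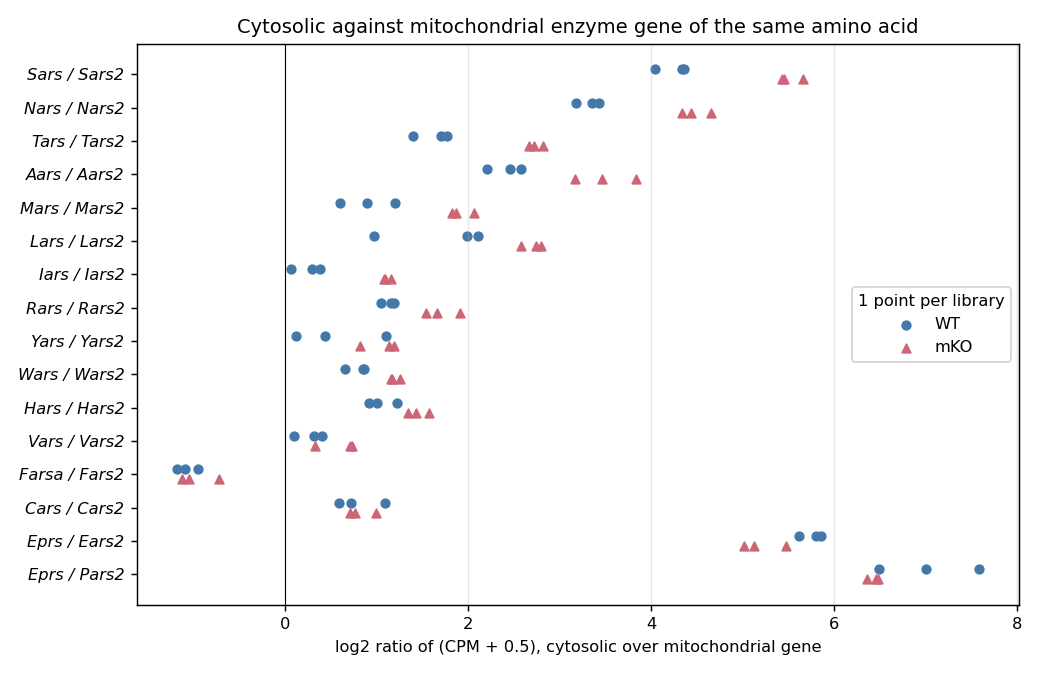
Log2 ratio of the cytosolic to the mitochondrial gene of each amino acid, with 0.5 CPM added to each, 1 point per library, circles for WT and triangles for mKO, ordered by the difference of group means. In 10 pairs, from serine (1.27) to histidine (0.40), all triangles lie to the right of all circles, and in both Eprs pairs they lie to the left. For Eprs over Pars2 the nearest triangle (6.4855) and circle (6.4949) nearly coincide.

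Per exon length the cytosolic genes were mostly the more abundant. On the scale of CPM per kilobase of listed exons, the WT level had a median of 20.8 over the cytosolic genes (range 1.17 to 53.6) and 2.52 over the mitochondrial genes (range 0.975 to 13.9). In mKO libraries the medians were 24.6 and 2.04. A WT level of at least 10 was reached by 15 cytosolic and 2 mitochondrial genes, Fars2 and Rars2. Nars led in WT (53.6 ± 1.26, SD, n = 3), followed by Tars (31.2 ± 1.22), Dars (29.8 ± 3.86), Kars (26.5 ± 3.54), Eprs (24.7 ± 2.20) and Lars (24.2 ± 1.86). Neighbours from Tars to Lars lay within their SD of each other, whereas Nars stood apart. In mKO libraries the order was Nars (79.3 ± 2.34), Gars (54.0 ± 4.21), Tars (53.0 ± 2.04), Lars (40.4 ± 3.48) and Sars (35.4 ± 1.28). Gars moved from rank 8 to rank 2 and Eprs from rank 5 to rank 12. WT ranks 5 to 10, from Eprs down to Farsb, lay close together, with neighbours within their SD. The move of Eprs in rank therefore goes with a small change, which did not pass the test. Farsb (22.1 ± 1.89 to 10.8 ± 0.226) and Farsa (3.04 ± 0.565 to 2.87 ± 0.456), whose proteins join in 1 enzyme, differed in level in both groups. Listed exons include rare transcript forms, which lowers the value of genes such as Eprs with 18102 listed bases.

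**Figure D5:**
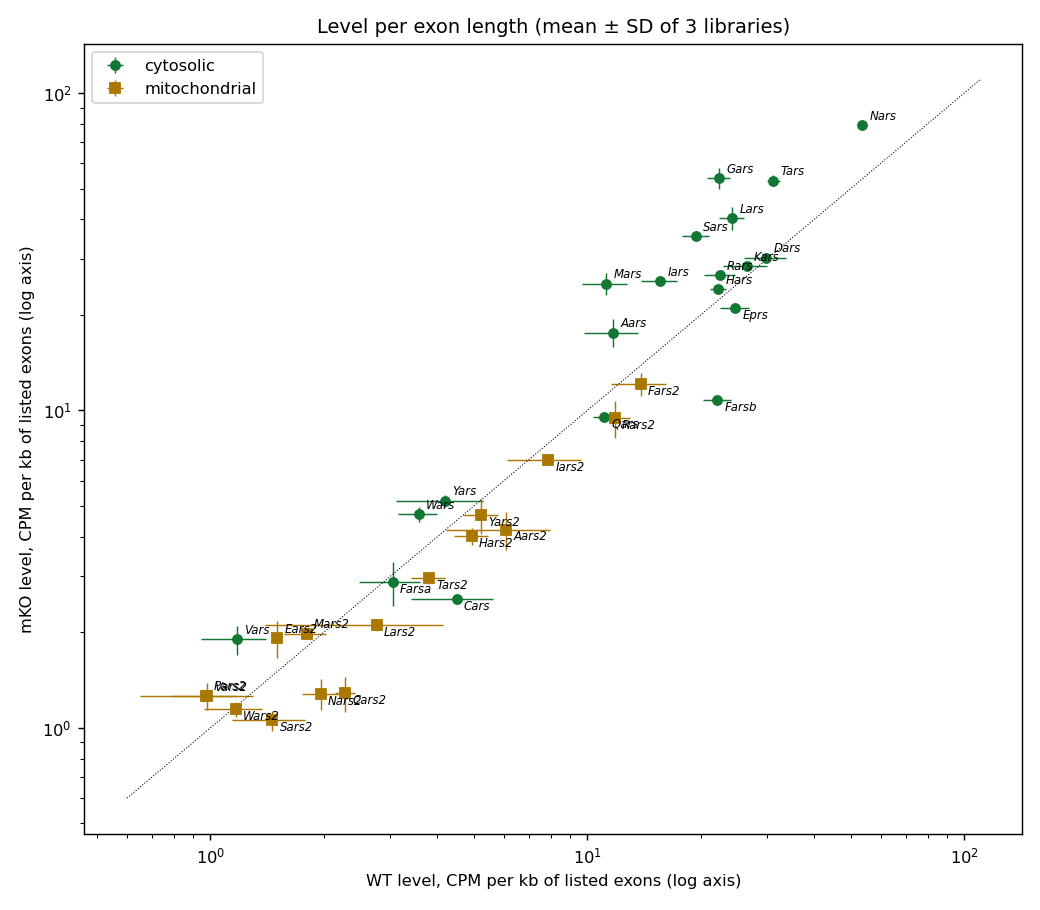
Mean level of each gene in WT (x axis) and mKO libraries (y axis) in CPM per kilobase of listed exons, both axes logarithmic, with SD of 3 libraries and a dotted line of equality. Cytosolic genes (circles) reach 53.6 in WT and 79.3 in mKO, and mitochondrial genes (squares) reach 13.9 and 12.1. The median log2 fold change of the mitochondrial genes, not plotted here, turns positive with library totals.

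Both structural classes held genes that rose. Synthetases fall into 2 unrelated folds, class I and class II, and Eprs holds 1 of each. Of 10 cytosolic class I genes 5 were higher and 1 lower, and of 11 class II genes 5 were higher and 1 lower, with Eprs counted in both. Of 9 mitochondrial class I genes 1 was lower, and of 7 class II genes 3 were lower. The enzymes of the multisynthetase complex, a large assembly of cytosolic synthetases, are encoded by Dars, Eprs, Iars, Kars, Lars, Mars, Qars and Rars, of which 3 were higher (median log2 0.18). Of the 12 cytosolic genes outside it, 7 were higher and 2 lower (median 0.48). Of all tested genes, 18.2% were higher and 18.9% lower. The higher share was above this background in each cytosolic grouping (37.5% to 58.3%), and no gene of either mitochondrial class was higher. The lower share was above the background only in the mitochondrial class II genes (42.9%, 3 of 7). It was near the background in the cytosolic genes outside the complex (16.7%, 2 of 12). Both cytosolic classes (9.09% in class II) and mitochondrial class I (11.1%) lay under it. No gene of the complex was lower. No difference between these groupings was tested.

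Of the 3 scaffold genes of that complex, 1 passed. Aimp1 was lower (100.5 ± 9.63 to 76.6 ± 4.69 CPM, SD, n = 3, log2 -0.39, edgeR adjusted p = 0.0162). Aimp2 (log2 -0.31, adjusted p = 0.0859) and Eef1e1 (log2 -0.28, adjusted p = 0.128) did not pass. Among 6 relatives of the synthetases, 1 was lower (18.9% of all tested genes were), Tarsl2, a second cytosolic threonine enzyme (85.9 ± 9.65 to 46.0 ± 4.99 CPM, SD, n = 3, log2 -0.90, edgeR adjusted p = 0.000122). Thus Tars rose 1.70-fold while Tarsl2 fell.

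Of 8 partners of mitochondrial transfer RNA, 2 were higher (25%) and 1 lower (12.5%), near the 18.2% and 18.9% of all tested genes. Trnt1, which adds the CCA end to transfer RNAs of both compartments, rose (26.2 ± 2.08 to 34.6 ± 0.889 CPM, edgeR adjusted p = 0.00992), as did Elac2, which trims their 3′ end (19.2 ± 0.970 to 24.6 ± 3.15 CPM, adjusted p = 0.0358). Qrsl1, part of the enzyme that makes mitochondrial glutaminyl-tRNA in place of a glutamine synthetase, fell (22.3 ± 5.93 to 14.5 ± 2.49 CPM, log2 -0.62, adjusted p = 0.0183). Gatc of the same enzyme did not pass (log2 -0.30, adjusted p = 0.0700).

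Of 7 genes of transfer RNA export and cytosolic elongation, 2 were higher (28.6%) and 1 lower (14.3%), also near those shares of all tested genes. Xpot, the nuclear exporter of transfer RNA, rose (36.7 ± 2.38 to 46.9 ± 4.38 CPM, edgeR adjusted p = 0.0247). Eef1a1, the elongation factor that carries charged transfer RNA, rose from 703 ± 98.7 to 1188 ± 173 CPM (adjusted p = 0.00106), a count that is uncertain because near-identical copies exist. Eef1d, part of its exchange factor, fell (141 ± 3.46 to 102.7 ± 9.29 CPM, adjusted p = 0.00555).

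Of 10 amino acid response genes, 6 were higher in the same libraries (the same number by DESeq2 and by limma-voom), against 18.2% of all tested genes. The list was chosen with earlier results of these data known. Atf4 had 115 ± 7.32 CPM in WT and 185 ± 6.81 CPM in mKO (SD, n = 3, log2 0.69, SE 0.11, edgeR adjusted p = 0.000289), close in size to Iars and Lars. Asns, which makes asparagine, had 1.35 ± 0.189 and 72.6 ± 14.8 CPM, a far larger change than that of any synthetase gene. Trib3 and Nupr1, known ATF4 targets, were higher as well (log2 2.51 and 1.33). Eif2ak4 itself did not pass (log2 0.19, adjusted p = 0.289), nor did Ddit3 and Chac1; these 3 were named after their values were seen.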

How the data were processed

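RNA of 6 gastrocnemius libraries, 3 WT and 3 mKO, was extracted with Trizol and made into libraries with the NEBNext Ultra RNA kit, per the labels' protocols. The deposited values are raw counts per Ensembl gene, whole numbers summed over listed exons, per the file headers. The submitters' processing notes name Trimmomatic 0.36, STAR 2.5.2b, featureCounts of Subread 1.5.2 and GRCm38. The strand setting and the handling of multi-mapping reads are not stated in those sources, so reads in exons shared between genes are uncertain. Of the 36 genes, 12 share exon bases with another gene, 6 of them over 5% of their exon length.

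Groups came from the sample titles. The members and lists were chosen with earlier results of these data known. Groups were compared with edgeR 4.0.16 (R 4.3.3, quasi-likelihood, TMM factors, group as the only term). This fit estimates the spread of each gene with information shared over the tested genes. The default low-count filter kept 16650 genes, over which p-values were adjusted by Benjamini-Hochberg, with calls at 0.05. The fit was tested on simulated counts with known fold changes. All 36 genes passed the filter. Fold changes are mKO over WT; the SE was derived from the log2 change and the test statistic. Members were all open to naming; values per library were given for those with the lowest p, for enzymes of both compartments and for the extremes of level, and of each other list up to 4 genes by lowest p, apart from 3 amino acid response genes that were picked with their values in view. Alternatives were DESeq2 1.42.0, limma-voom (limma 3.58.1), RLE and upper-quartile factors, library totals, no low-count filter, an adjusted p of 0.01, a replicate block, leaving out each library and a pseudocount of 0.1. No library repeated another of its group (chi-square per degree of freedom 20.9 to 57.7). A planned alignment of proteins was not made, and 1 gene of the list of relatives is not reported here.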

Additional observations from a re-analysis of the deposited data

How the results depend on the processing

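Of 10 cytosolic calls higher, 9 were kept under all 14 alternatives, the exception being Wars; Farsb, of 2 lower, and Cars2, of 4 mitochondrial calls, were kept too. With library totals 1 cytosolic gene was lower, 5 mitochondrial genes were higher and 1 lower, 8159 of all genes were higher and 1124 lower, and the medians were 0.82 (cytosolic) and 0.22 (mitochondrial), since this scaling shifts every gene. Of uncalled or called members, Eprs (0.23), Farsa (0.38), Qars (0.25), Fars2 (0.27), Hars2 (0.17), Iars2 (0.29), Lars2 (0.076), Rars2 (0.14), Tars2 (0.10), Wars2 (0.44) and Yars2 (0.30) turned positive there. With upper-quartile factors 1 mitochondrial gene was higher and 2 lower, and Wars2 was 0.035. At an adjusted p of 0.01, 2 mitochondrial genes were lower and 1867 of all genes higher. Leaving out 1 library gave 9 to 11 cytosolic genes higher and 2 to 3 lower, 2 to 4 mitochondrial genes lower (2 without mKO replicate 2 or 3), a cytosolic median of 0.31 to 0.48, a mitochondrial median of -0.28 to -0.22, a difference of medians of 0.57 to 0.72 and 10 to 11 pairs with a higher ratio; both upper bounds of the cytosolic median and of the difference came without WT replicate 2. Signs of small changes turned without WT replicate 2 in Dars (range over the libraries left out -0.075 to 0.11), Farsa (-0.22 to 0.043, also 0.017 without mKO replicate 3), Iars2 (-0.28 to 0.019) and Wars2 (-0.17 to 0.090), and without WT replicate 1 in Lars2 (-0.60 to 0.090). The pair ratio of Cars and Cars2 ranged from -0.084 to 0.17, turning without WT replicate 1, WT replicate 3 (-0.022) or mKO replicate 2 (-0.064), and that of Farsa and Fars2 from -0.017 (without mKO replicate 2) to 0.19. Lars2 was called lower without a low-count filter (adjusted p = 0.0195). Where no reason is given, the cause was not tested.

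The labels do not say whether equal replicate numbers pair the libraries. Deviations of libraries with equal numbers from their group means correlated at -0.0020 to 0.022. With 3 libraries a group, this shows no shared deviation but cannot exclude pairing. With the replicate number as a block, 9 cytosolic genes were higher, 2 mitochondrial genes were lower, and Wars, Aars2 and Tars2 lost their calls (adjusted p = 0.0520, 0.0854 and 0.0526).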
